A study of Mus musculus with 29 samples.

Results

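Klf2, Tcf7, Lef1, Bach2, Satb1, Il7r, S1pr1, Ccr7 and Btg1 are 9 genes that resting, naive T cells transcribe at high levels and that are widely used to mark the naive and quiescent state. They were chosen by name, and their Ensembl identifiers were found by mapping to mouse symbols: 9 of 9 were matched among 55414 genes counted, and 9 of 9 passed the filter on low counts, which left 14375 genes to be tested. All 9 are protein-coding.

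The data were read counts per gene from 29 RNA-seq libraries of mouse CD4+ T cells in 10 groups. The cells came from the spleens of C57BL/6-Foxp3tm1Flv/J mice, a strain whose Foxp3 locus carries a red fluorescent protein (RFP) reporter. Every group was stimulated with anti-CD3 (1.25 ug/ml) and anti-CD28 (2.5 ug/ml) in medium with 0.5 mM glucose and 50 IU/ml IL-2. The control groups, called S, received stimulation alone. The SLA groups also received 10 mM lactic acid, the T groups 3 ng/ml TGF-beta, and the TLA groups both. Tcon, the conventional cells without the RFP signal, were taken at 24 h in the 4 media and at 72 h in the 4 media. Treg, the RFP-positive regulatory cells, were taken at 72 h in the T and TLA media. Each group had 3 libraries, except Tcon S at 72 h with 2. Replicate 1 is labelled male in each group and replicates 2 and 3 female; the labels give no ages. The labels do not say whether Foxp3-expressing cells were removed before culture, so the RFP-positive cells may include cells that were already Treg. Nor do they say whether the 24 h and 72 h cells came from the same cultures.

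Naive T cells recirculate between blood and lymphoid organs in a quiescent state that is actively maintained. FOXO transcription factors drive Klf2, and KLF2 in turn drives S1pr1. These programs are switched down after antigen receptor stimulation, when cells enlarge, divide and acquire effector genes.

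Libraries held 9754511 to 14315313 reads assigned to genes (median 12106958). Levels are given as CPM, the reads of a gene relative to the reads of all genes that passed the filter in its library, after scaling. The summed level of 9 CD4 T cell identity genes was 2809 to 3706 CPM over the 29 libraries, against 1.04 to 5.83 CPM for 10 B cell genes and at most 0.579 CPM for 6 erythroid genes. The sum of 11 myeloid genes was 0.411 to 17.5 CPM, mostly Mpeg1, with Cd14, S100a8, S100a9 and Csf3r at 0 in all 29. The sum of 6 endothelial genes was 19.9 to 74.7 CPM and was nearly all Pecam1 and Egfl7, with the defining genes Emcn at 0 in 29 libraries, Tek in 28, Cdh5 in 26 and Kdr in 20. Foxp3 was 153 to 572 CPM in the 6 Treg libraries and at most 73.3 CPM in any Tcon library. In bulk RNA, fewer cells of a type and less RNA per cell cannot be told apart.

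Per kilobase of exon, Ccr7 was the most abundant of the 9, at a mean of 325 CPM per kb over the 29 libraries, followed by Tcf7 at 175. The other 7 lay between 13.8 CPM per kb (S1pr1 and Il7r) and 36 (Btg1), with Bach2 at 34.2, Klf2 and Lef1 at 23.2 each and Satb1 at 17.1. The lengths behind these values are the union of all annotated exons, 19027 bases for Satb1 against 1847 for Klf2, and longer unions give lower values.

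Their ranges over the 10 groups differed widely. The highest group mean was 159-fold above the lowest for Klf2, 10.8-fold for S1pr1, 7.26-fold for Satb1, 6.36-fold for Tcf7 and 5.54-fold for Ccr7. It was 4.18-fold for Bach2, 3.25-fold for Btg1, 3.09-fold for Il7r and 2.17-fold for Lef1. The highest group was 24 h Tcon TLA for Klf2, Tcf7, Lef1, S1pr1, Ccr7 and Btg1, 24 h Tcon T for Bach2, 24 h Tcon SLA for Satb1 and 72 h Tcon TLA for Il7r. The lowest group was 72 h Tcon SLA for Klf2, Bach2, S1pr1, Ccr7 and Btg1, 72 h Tcon S for Lef1, 72 h Treg T for Tcf7 and Satb1, and 24 h Tcon T for Il7r.

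**Figure D1:**
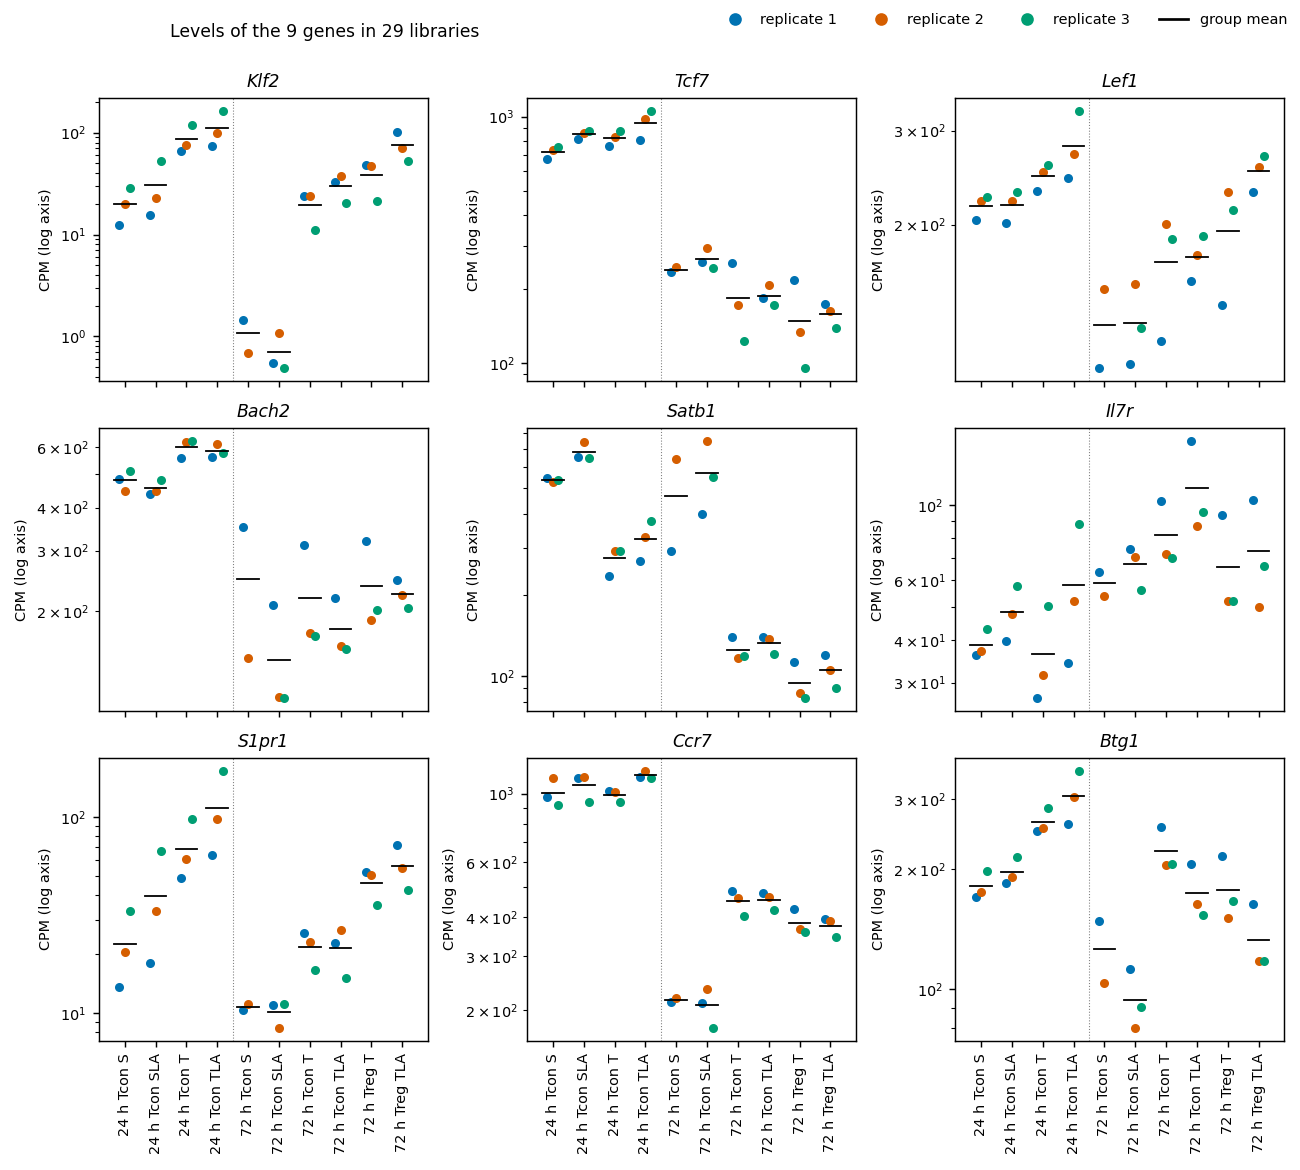
Level of each gene in every library, in CPM on a log axis. Each point is 1 library, coloured by replicate number, and the black bar is the group mean; the dotted line separates 24 h from 72 h. Klf2 at 72 h without TGF-beta (0.490 to 1.46 CPM) lies below all other groups, and Ccr7 at 24 h (918 to 1187 CPM) lies above all 72 h groups.

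The first comparison asked how the genes stood at 72 h against 24 h in Tcon of the same medium. Most were lower at 72 h: with edgeR's quasi-likelihood test across all genes (adjusted p below 0.05), 6 of 9 fell and none rose in S, 7 fell and none rose in SLA, 7 fell and 1 rose in T, and 8 fell and 1 rose in TLA. Over all genes tested, 45.5% were called in S (27.1% higher, 18.4% lower at 72 h), 46.6% in SLA (26.5% and 20.1%), 52.8% in T (28% and 24.8%) and 47.4% in TLA (24.4% and 23%). The median log2 difference of the 9 was -0.96, -1.66, -1.14 and -1.34 in these media, against 0.05, 0.02, 0.01 and -0.02 over all genes tested. The comparisons below reuse these libraries, so the S and T groups serve in several contrasts at once. Every difference between the times also carries any difference between the cultures, which cannot be told apart from it.

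Same-numbered libraries deviated together within a time point, so a second fit blocked on the replicate number; its values are called paired, and are given wherever they change a call within a time point. The numbers did not pair libraries between the times. For 72 h against 24 h the block would only take the spread between replicates out of the error and make p too small, so no paired value is given for that contrast.

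Among the transcription factors, Tcf7, which encodes TCF-1, a factor needed for T cell development and for memory, dropped in every medium. It stood at 673, 732 and 752 CPM in the S libraries at 24 h (replicates 1, 2 and 3) and at 234 and 245 CPM at 72 h. In TLA it was 806, 975 and 1056 CPM at 24 h and 184, 208 and 171.9 CPM at 72 h. No 72 h library of any medium reached the lowest 24 h library. Tcf7 fell, with log2 differences of -1.59 ± 0.25 (SE) in S, -1.68 ± 0.22 in SLA, -2.16 ± 0.22 in T and -2.33 ± 0.22 in TLA (edgeR adjusted p from 1.06e-08 to 2.36e-05).

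Lef1, the partner factor of the same family, moved much less. Its group means were 217 to 281 CPM in the 24 h groups and 130 to 174 CPM in the 72 h Tcon groups. Lef1 fell, with log2 differences of -0.74 ± 0.20 (SE) in S, -0.73 ± 0.18 in SLA, -0.54 ± 0.18 in T and -0.69 ± 0.18 in TLA (edgeR adjusted p 0.00477, 0.00166, 0.0137 and 0.00264). The call was lost without 72 h Tcon S replicate 1 in S (log2 difference -0.52) and without 72 h Tcon T replicate 1 in T (-0.34).

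Bach2, a repressor that restrains effector differentiation, was 437 to 627 CPM over the 12 libraries at 24 h. At 72 h it was 351 and 145 CPM in the S libraries, 208, 112 and 112 CPM in SLA, 312, 172.4 and 169 CPM in T, and 218, 158 and 155 CPM in TLA. Replicate 1 was thus the highest in each of the 72 h Tcon groups. Bach2 fell, with log2 differences of -0.96 ± 0.31 (SE) in S, -1.66 ± 0.28 in SLA, -1.47 ± 0.28 in T and -1.73 ± 0.28 in TLA (edgeR adjusted p 0.0157, 3.62e-05, 0.000124 and 2.12e-05). In S the difference was -1.73 without 72 h Tcon S replicate 1 and -0.50, no longer called, without replicate 2.

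Klf2, the zinc finger factor that holds T cells in quiescence, showed the steepest drop of the 9 in media without TGF-beta. It was 12.3, 19.8 and 28.4 CPM in the 24 h S libraries and 1.46 and 0.691 CPM in the 72 h S libraries. In SLA it was 15.5, 23.0 and 52.9 CPM at 24 h and 0.544, 1.08 and 0.490 CPM at 72 h. These 72 h values rest on 6 to 17 reads per library, and the groups did not overlap. Klf2 fell, with log2 differences of -4.24 ± 0.71 (SE) in S and -5.37 ± 0.63 in SLA, and -2.15 ± 0.44 in T and -1.90 ± 0.43 in TLA (edgeR adjusted p from 2.96e-07 to 0.000881).

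Satb1, a chromatin organiser of T cells, passed the test in the media with TGF-beta; the test of that difference is given with the third comparison. Without TGF-beta the log2 difference was -0.20 ± 0.24 (SE) in S and -0.26 ± 0.21 in SLA, neither called (edgeR adjusted p 0.528 and 0.328). The 72 h S libraries lay on both sides of the 24 h range of 529 to 544 CPM, at 293 and 644 CPM, and the difference was 0.26 without 72 h Tcon S replicate 1. With TGF-beta Satb1 fell, with log2 differences of -1.13 ± 0.22 in T and -1.29 ± 0.22 in TLA (adjusted p 0.000155 and 3.80e-05).

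Of the receptors, Ccr7, the chemokine receptor for entry into lymph nodes, was 918 to 1187 CPM in all 12 libraries at 24 h. At 72 h it was 176 to 234 CPM in the 5 libraries without TGF-beta and 402 to 485 CPM in the 6 Tcon libraries with it. Ccr7 fell, with log2 differences of -2.22 ± 0.13 (SE) in S, -2.36 ± 0.11 in SLA, -1.14 ± 0.11 in T and -1.34 ± 0.11 in TLA (edgeR adjusted p from 2.10e-13 to 8.96e-09).

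S1pr1, the sphingosine-1-phosphate receptor for exit from lymphoid organs, was 13.6 to 171.7 CPM over the 12 libraries at 24 h and 8.46 to 26.6 CPM in the 72 h Tcon libraries. It fell, with log2 differences of -1.95 ± 0.42 (SE) in SLA, -1.66 ± 0.40 in T and -2.37 ± 0.41 in TLA (edgeR adjusted p 0.000594, 0.00144 and 4.95e-05). In S the difference of -1.05 ± 0.48 was not called (adjusted p 0.0772).

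Il7r, the receptor for the survival cytokine IL-7, went the other way. In T it was 27.1, 31.5 and 50.4 CPM at 24 h and 103, 71.7 and 70.1 CPM at 72 h. In TLA it was 34.4, 52.3 and 87.7 CPM at 24 h and 155, 86.7 and 95.6 CPM at 72 h. The T groups were apart and the TLA groups overlapped by 1 library on each side. Il7r rose by 1.17 ± 0.32 (log2, SE) in T and 0.95 ± 0.31 in TLA (edgeR adjusted p 0.00401 and 0.0157), and the TLA call was lost without 24 h Tcon TLA replicate 1 (log2 difference 0.65 to 1.37 over the 6 fits that leave out 1 library), without replicate 2 of that group or without 72 h Tcon TLA replicate 1. In S and SLA the differences of 0.60 ± 0.35 and 0.47 ± 0.32 were not called.

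Btg1, an antiproliferative factor that recruits the CCR4-NOT deadenylase, fell, with log2 differences of -0.52 ± 0.19 (SE) in S, -1.06 ± 0.17 in SLA and -0.81 ± 0.17 in TLA (edgeR adjusted p 0.0287, 1.98e-05 and 0.000379). In T it was 250.5, 254 and 285 CPM at 24 h against 256, 206 and 206 CPM at 72 h, groups that overlapped. That difference of -0.24 ± 0.17 was not called (adjusted p 0.233). The call in S was lost without 24 h Tcon S replicate 3 and without 72 h Tcon S replicate 2, with differences of -0.81 to -0.33 over the fits that leave out 1 library.

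**Figure D2:**
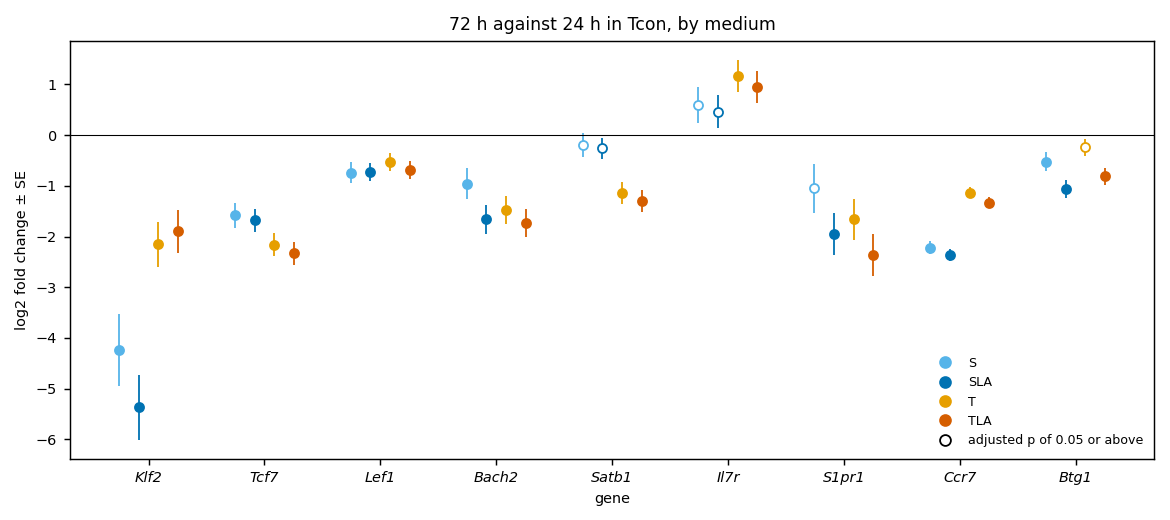
Log2 fold change of each gene at 72 h against 24 h in Tcon, with its standard error, by medium (S alone, SLA with lactic acid, T with TGF-beta, TLA with both). Filled points passed the test. Klf2 in S (-4.24) and SLA (-5.37) lies lowest, and Il7r is the gene above 0 in all 4 media.

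The same contrast in related genes gave a wider view. Over all genes tested, 45.5% were called in S, 46.6% in SLA, 52.8% in T and 47.4% in TLA. Of 36 other naive and quiescence genes tested, 5 rose and 18 fell in S, 3 rose and 24 fell in SLA, 6 rose and 18 fell in T, and 4 rose and 18 fell in TLA. Foxo1, which encodes the factor upstream of Klf2, fell, with log2 differences of -0.90 ± 0.12, -1.16 ± 0.11, -0.66 ± 0.10 and -0.70 ± 0.10 (SE) in the 4 media. Bcl11b, a T cell identity factor, fell in S by 1.44 ± 0.16, and Themis, a T cell receptor signalling adaptor, rose by 1.82 ± 0.13. Of 6 related KLF genes, Klf6 rose in S by 1.90 ± 0.20 and Klf3 fell by 1.40 ± 0.42. Of 20 activated and effector genes, 12 rose and 4 fell in S. The proliferation gene Mki67 rose there by 3.93 ± 0.28 and Gzmb, encoding a cytotoxic granule protease, by 4.05 ± 0.35. Of 7 BACH partners and targets, 4 rose and 1 fell in S, 3 and 2 in SLA, and 3 and 1 in both T and TLA. Among them Prdm1, a gene that BACH2 is known to repress, rose in all 4 media, by 4.42 ± 0.61 in S, 3.02 ± 0.53 in SLA, 2.29 ± 0.54 in T and 1.45 ± 0.50 in TLA. Pecam1, an endothelial marker that T cells also transcribe, fell over time in all 4 media (-0.64 to -1.01), so the endothelial sum moved with the members. The sum of 8 CD8 and NK markers went from 117.5 ± 12.0 CPM (SD, n = 3) to 37.9 ± 9.77 (n = 2) in S, from 141.5 ± 10.5 to 32.1 ± 5.65 in SLA, from 19.3 ± 3.09 to 73.2 ± 27.7 in T and from 23.6 ± 5.86 to 123.8 ± 24.9 in TLA. The sum of 10 B cell markers went from 1.27 ± 0.258 to 5.19 ± 0.918 CPM in S and from 1.68 ± 0.225 to 4.37 ± 0.407 in SLA, with both tested B cell genes called higher. The part of these markers in the results was not tested.

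The second comparison asked what TGF-beta did in Tcon at each time and in each medium. Klf2, Btg1 and, in 3 of the 4 contrasts, S1pr1 rose; Satb1 fell in all 4; and Ccr7 rose at 72 h. At 24 h, 3 of 9 genes rose and 1 fell without lactic acid, and the same counts were found with it. Over all genes 11.3% were called without lactic acid (7.96% higher, 3.35% lower) and 12.4% with it (8.06% and 4.38%). At 72 h, 3 rose and 1 fell without lactic acid and 4 rose and 1 fell with it. The shares over all genes were then 24.5% (12.8% and 11.7%) and 45% (22.5% and 22.5%). Paired, 5, 6, 7 and 9 of the 9 were called in these contrasts, against 31.7%, 32.4%, 45.4% and 60% of all genes. The median log2 difference of the 9 was 0.19 and 0.36 at 24 h and 0.47 and 0.75 at 72 h, against 0.00, 0.01, -0.03 and -0.02 over all genes.

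Klf2 was 12.3, 19.8 and 28.4 CPM in the 24 h S libraries and 65.7, 76.1 and 118 CPM in the T libraries. At 72 h it was 1.46 and 0.691 CPM in S and 23.7, 23.7 and 11.0 CPM in T. With lactic acid it was 15.5, 23.0 and 52.9 CPM in SLA and 73.4, 99.7 and 164 CPM in TLA at 24 h, and 0.544, 1.08 and 0.490 CPM in SLA and 32.6, 37.8 and 20.2 CPM in TLA at 72 h. In each of the 4 contrasts every library with TGF-beta was above every library without it. Klf2 rose by 2.11 ± 0.44 (log2, SE; 4.30-fold) and, with lactic acid, 1.89 ± 0.43 (3.70-fold) at 24 h, with edgeR adjusted p of 0.00190 and 0.00409. At 72 h it rose by 4.19 ± 0.71 (18.2-fold) and 5.36 ± 0.63 (41.0-fold), with adjusted p of 0.000115 and 4.03e-07. The 72 h values without TGF-beta rest on 6 to 17 reads a library, so the size of these folds depends on very low counts. All 4 calls held in each fit that left out 1 library.

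Btg1 rose by smaller steps. It was 170.2, 175 and 198 CPM in S and 250.5, 254 and 285 CPM in T at 24 h, and 149 and 104 CPM in S and 256, 206 and 206 CPM in T at 72 h. With lactic acid it was 185, 192 and 215 CPM in SLA and 261, 304 and 354 CPM in TLA at 24 h, and 112, 80.1 and 90.1 CPM against 206, 164 and 154 CPM at 72 h. The groups were apart in all 4 contrasts. Btg1 rose by 0.54 ± 0.17 (log2, SE) and 0.64 ± 0.17 at 24 h and by 0.82 ± 0.19 and 0.89 ± 0.17 at 72 h (edgeR adjusted p 0.0392, 0.0127, 0.00285 and 0.000182). The 24 h call without lactic acid was lost in 5 of 6 fits that left out 1 library (all but the fit without 24 h Tcon S replicate 3, difference 0.48 to 0.61). The 24 h call with it was lost without SLA replicate 1, SLA replicate 2 or TLA replicate 3 (0.52 to 0.74), and the 72 h call without lactic acid was lost without S replicate 2 (0.58 to 1.12).

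The promoters of Klf2 and Btg1 are shown because these 2 genes rose with TGF-beta in all 4 contrasts. Each window covers 250 bases before to 50 after a RefSeq start (GRCm38.p6) and was searched on both strands for CCACCC, read as GGGTGG on the other strand, the box that KLF factors bind. The same was done for the forkhead motif of FOXO factors, GTAAACA or its reverse TGTTTAC, for the TCF and LEF motif, ATCAAAG or its reverse CTTTGAT, and for a SMAD motif, CAGACA or its reverse TGTCTG. No motif overlaps another in these windows. Capitals mark the matches.
Klf2, chr8:72318812-72319111, plus strand: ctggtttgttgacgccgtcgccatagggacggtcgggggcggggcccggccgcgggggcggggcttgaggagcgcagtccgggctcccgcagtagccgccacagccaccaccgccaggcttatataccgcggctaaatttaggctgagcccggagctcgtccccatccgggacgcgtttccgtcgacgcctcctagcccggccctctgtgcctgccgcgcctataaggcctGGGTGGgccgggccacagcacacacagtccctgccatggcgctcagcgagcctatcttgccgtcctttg
Btg1, chr10:96616751-96617050, plus strand: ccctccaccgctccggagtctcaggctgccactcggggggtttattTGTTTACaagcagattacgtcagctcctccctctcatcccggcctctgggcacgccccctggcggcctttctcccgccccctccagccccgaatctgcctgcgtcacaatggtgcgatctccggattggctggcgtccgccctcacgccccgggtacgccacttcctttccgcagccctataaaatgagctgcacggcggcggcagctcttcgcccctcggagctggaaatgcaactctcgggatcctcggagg
The Klf2 window holds 1 match, GGGTGG at 19 bases before the start, and the Btg1 window 1 match, TGTTTAC at 204 bases before the start. Over all 32851 promoter windows of the same length, 31.5% hold the KLF box, 3.65% the forkhead motif, 3.73% the TCF and LEF motif and 21% the SMAD motif. Of the 9 genes, 7 were matched to 15 windows in all (S1pr1 and Ccr7 were not). Of these 7, 4 have a KLF box in at least 1 window, 4 a SMAD motif and 2 a forkhead motif. Some of the 7 have several windows, in part overlapping, while the shares above are per window, so the counts cannot be compared with them. A match is a description of the letters and not of binding.

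Satb1 moved opposite to Klf2. It was 544, 529 and 536 CPM in S and 236, 292 and 292 CPM in T at 24 h, and 293 and 644 CPM in S against 139.5, 116 and 118 CPM in T at 72 h. With lactic acid it was 656, 742 and 648 CPM in SLA and 267, 329 and 376 CPM in TLA at 24 h, and 401, 751 and 551 CPM against 139, 137 and 121 CPM at 72 h. No library with TGF-beta reached any library without it of the same time and lactic acid dose. Satb1 fell, with log2 differences of -0.97 ± 0.22 (SE) and -1.07 ± 0.22 at 24 h and -1.91 ± 0.24 and -2.10 ± 0.22 at 72 h (edgeR adjusted p 0.00354, 0.00133, 2.22e-06 and 8.61e-08). All 4 calls held in each fit that left out 1 library, although without 72 h Tcon S replicate 2 the 72 h difference without lactic acid was -1.23.

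S1pr1 stood higher with TGF-beta at both times. At 24 h it was 13.6, 20.6 and 33.3 CPM in S and 48.8, 60.7 and 97.3 CPM in T, which were apart. In SLA it was 18, 33.2 and 67.1 CPM and in TLA 63.6, 97.0 and 171.7 CPM, groups that overlapped by 1 library on each side, with TLA higher in 3 of 3 same-numbered pairs. S1pr1 rose by 1.62 ± 0.40 (log2, SE) and 1.49 ± 0.39 (edgeR adjusted p 0.00893 and 0.0127). The first call was lost without S replicate 1 or T replicate 3 (difference 1.29 to 2.01), and the second without SLA replicate 1, SLA replicate 2 or TLA replicate 3 (1.03 to 2.10).

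At 72 h S1pr1 was 10.4 and 11.1 CPM in S and 25.6, 23.1 and 16.6 CPM in T, and 11.1, 8.46 and 11.1 CPM in SLA and 22.9, 26.6 and 15.2 CPM in TLA. The groups were apart in both contrasts. The difference of 1.01 ± 0.48 without lactic acid was not called (edgeR adjusted p 0.134) and was called when paired (1.14, adjusted p 2.15e-05). With lactic acid S1pr1 rose by 1.08 ± 0.42 (adjusted p 0.0424), a call lost in 5 of 6 fits that left out 1 library, all but the fit without 72 h Tcon TLA replicate 3 (difference 0.90 to 1.28).

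Ccr7 at 24 h was 978, 1124 and 918 CPM in S and 1017, 1012 and 941 CPM in T, with a log2 difference of -0.02 ± 0.11 (SE), and the difference with lactic acid was 0.11 ± 0.11 (edgeR adjusted p 0.921 and 0.562). At 72 h it was 212 and 219.5 CPM in S and 485, 460.5 and 402 CPM in T, and 212, 234 and 176 CPM in SLA and 478, 464 and 421 CPM in TLA. The 72 h groups were apart. Ccr7 rose there by 1.06 ± 0.12 and 1.13 ± 0.11 (adjusted p 9.68e-07 and 1.78e-08), and both calls held in each fit that left out 1 library.

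Tcf7, Lef1, Bach2 and Il7r passed the test in none of the 4 TGF-beta contrasts without pairing. Tcf7 differences were 0.19 ± 0.21 and 0.16 ± 0.21 (log2, SE) at 24 h and -0.39 ± 0.24 and -0.49 ± 0.21 at 72 h, the last called when paired (-0.49, edgeR adjusted p 0.00536). Lef1 differences were 0.19 ± 0.18, 0.37 ± 0.18, 0.39 ± 0.20 and 0.41 ± 0.18, of which the last 3 were called when paired (0.36, 0.33 and 0.42, adjusted p 0.00274, 0.0122 and 0.000309). Bach2 differences were 0.32 ± 0.27, 0.36 ± 0.27, -0.19 ± 0.30 and 0.30 ± 0.27, called when paired in all but the third (0.32, 0.36 and 0.34, adjusted p 0.0395, 0.0203 and 0.0195). Il7r differences were -0.10 ± 0.32, 0.26 ± 0.32, 0.47 ± 0.35 and 0.75 ± 0.31, with the 72 h contrasts called when paired (0.55 and 0.70, adjusted p 0.0117 and 0.000253).

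**Figure D3:**
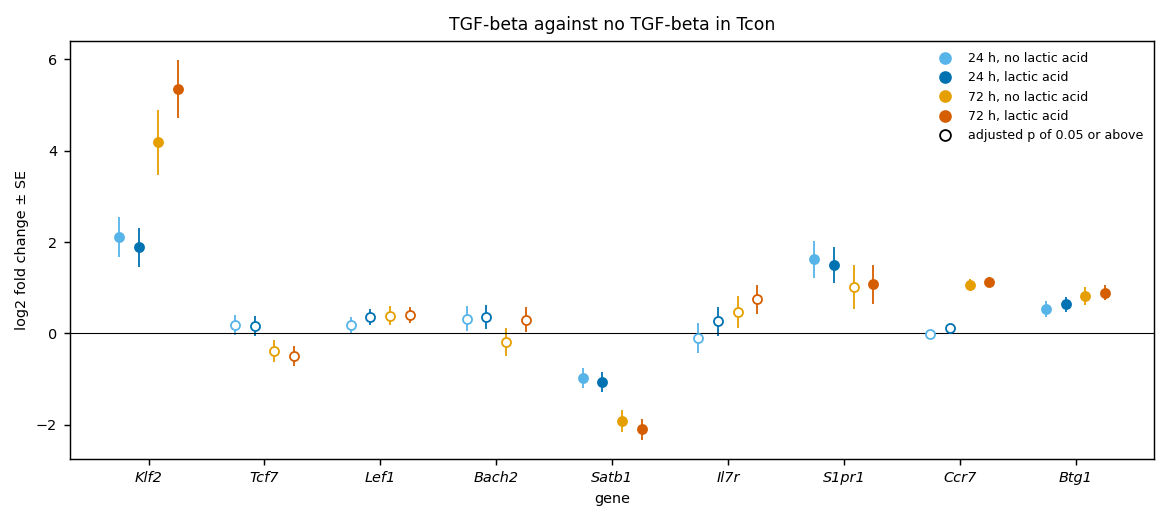
Log2 fold change of each gene with TGF-beta against without it in Tcon, with its standard error, at 24 h and 72 h and with or without lactic acid. Filled points passed the test. Klf2 and Satb1 lie on opposite sides of 0 in all 4 contrasts, and Ccr7 leaves 0 at 72 h.

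Other genes of these pathways were counted in the same contrasts. Over all genes, 11.3% were called at 24 h without lactic acid and 12.4% with it. The shares at 72 h were 24.5% and 45%. They are the background for the list counts here and in the next paragraphs on TGF-beta. Of the 36 other naive and quiescence genes, 11 rose and none fell at 24 h without lactic acid, 10 rose and 1 fell with it, 13 rose and 4 fell at 72 h without it, and 20 rose and 2 fell with it. Foxo1 rose in all 4, by 0.95 ± 0.10, 0.92 ± 0.10, 1.19 ± 0.12 and 1.39 ± 0.11 (log2, SE). Igfbp4, encoding a binding protein for insulin-like growth factors, rose by 2.79 ± 0.43 at 24 h and 4.25 ± 0.55 at 72 h without lactic acid.

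Of 11 genes of IL-7 receptor signalling, 5 rose and 1 fell at 24 h in each medium, and at 72 h 4 rose and 1 fell without lactic acid and 7 rose and 1 fell with it. Bcl2, the survival gene downstream of this receptor, rose by 1.84 ± 0.25 (log2, SE) at 72 h without lactic acid and 2.00 ± 0.21 with it. Of 10 trafficking genes, 2 rose and 1 fell at 24 h without lactic acid and 6 rose and none fell with it, and at 72 h 3 rose and 3 fell without it and 5 rose and 2 fell with it. S1pr4, another sphingosine-1-phosphate receptor, rose at 24 h by 0.78 ± 0.22 without lactic acid and 0.72 ± 0.22 with it, and at 72 h by 0.83 ± 0.22 with it, with 0.28 ± 0.24, not called, without it. Cd69, whose product holds S1PR1 inside the cell, fell by 0.59 ± 0.17 at 24 h without lactic acid. The other Cd69 differences were not called, at -0.51 ± 0.17 at 24 h with lactic acid and 0.27 ± 0.20 and 0.12 ± 0.17 at 72 h. Of 12 genes of the BTG, TOB and CCR4-NOT group, 1 rose and none fell at 24 h in each medium (Cnot6, 0.41 ± 0.09 without lactic acid), none moved at 72 h without lactic acid, and 1 rose and 2 fell with it. Bcl11b rose at 24 h by 0.80 ± 0.14 and at 72 h by 1.13 ± 0.16 without lactic acid, while its fellow chromatin gene Satb1 fell. Of 20 activated and effector genes, 1 rose and 4 fell at 24 h and 2 rose and 5 fell at 72 h without lactic acid, and none rose and 7 fell and 2 rose and 7 fell with it.

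Markers of other cell types moved with TGF-beta too. The sum of the 8 CD8 and NK markers was lower with TGF-beta at 24 h and higher at 72 h. Without lactic acid it was 117.5 ± 12.0 CPM (SD, n = 3) in S and 19.3 ± 3.09 in T at 24 h, and 37.9 ± 9.77 (n = 2) in S and 73.2 ± 27.7 (n = 3) in T at 72 h. With lactic acid it was 141.5 ± 10.5 in SLA and 23.6 ± 5.86 in TLA at 24 h, and 32.1 ± 5.65 and 123.8 ± 24.9 at 72 h. At 24 h most of it was Eomes, a T-box factor that activated CD4 cells also transcribe, at 101 ± 11.0 CPM in S and 11.4 ± 3.66 in T. At 72 h Eomes was 13.8 ± 2.43 CPM (n = 2) in S and 37.8 ± 18 in T, and Klrk1, an NK receptor gene, 5.51 ± 2.25 and 14.2 ± 4.95. Of the 6 markers tested, none rose and 2 fell at 24 h, and 4 rose and 1 fell at 72 h, in each medium.

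The sum of 11 myeloid markers was higher with TGF-beta in all 4 contrasts, as was Klf2. It was 0.918 ± 0.528 CPM (SD, n = 3) in S and 2.50 ± 0.664 in T, and 0.818 ± 0.561 in SLA and 3.45 ± 0.891 in TLA, at 24 h. At 72 h it was 1.503 ± 0.915 (n = 2) in S and 8.28 ± 1.59 in T, and 0.788 ± 0.296 in SLA and 13.8 ± 3.18 in TLA. The single myeloid gene tested, Mpeg1, was called higher in all 4 contrasts and was 8.04 ± 1.60 CPM in T and 13.4 ± 3.01 in TLA at 72 h. The B cell sum at 72 h was 5.19 ± 0.918 CPM (n = 2) in S and 2.65 ± 0.712 in T, and 4.37 ± 0.407 in SLA and 2.47 ± 1.55 in TLA. The part of these markers in the results was not tested.

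The third comparison asked whether the effect of TGF-beta differed between 24 h and 72 h. It was larger at 72 h for Ccr7, by 1.08 ± 0.16 (log2, SE) without lactic acid and 1.02 ± 0.15 with it (edgeR adjusted p 0.000222 and 7.19e-05), and both calls held in each fit that left out 1 library. With lactic acid it was also larger for Klf2, by 3.47 ± 0.79 (adjusted p 0.00422), and more negative for Satb1, by -1.03 ± 0.30 (adjusted p 0.0251). Klf2 in 72 h Tcon SLA was 0.490 to 1.08 CPM, from 6 to 15 reads a library, so the size of its difference depends on very low counts. The Klf2 call held in 12 of 12 fits that left out 1 library, and the Satb1 call in 7 of 12 (-1.18 to -0.77 over all 12). The Satb1 call was lost without 24 h SLA replicate 1 or 3, 24 h TLA replicate 3, 72 h SLA replicate 2 or 72 h TLA replicate 3. Without lactic acid the Klf2 difference was 2.08 ± 0.86 (adjusted p 0.181; paired 2.29, adjusted p 0.000187) and that of Satb1 -0.94 ± 0.32 (adjusted p 0.0898; paired -0.83, adjusted p 0.0457). The latter was -1.39 without 72 h Tcon S replicate 1 and -0.21 without replicate 2. In all, 1 of 9 genes was called without lactic acid and 3 of 9 with it, against 5.73% and 14.4% of all genes, and 5 in each when paired, against 19.4% and 33.6%. Tcf7, with a difference of -0.65 ± 0.30 with lactic acid (adjusted p 0.165), was called when paired (-0.64, adjusted p 0.0167). Il7r was called when paired without lactic acid (0.69, adjusted p 0.0418), and Btg1 without it (0.35, adjusted p 0.00759) and with it (0.26, adjusted p 0.0192).

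The fourth comparison set Treg against Tcon at 72 h, both in TGF-beta. Without pairing, none of the 9 passed edgeR's test in either medium, against 0.216% of all genes called without lactic acid and 2.55% with it. At an unadjusted p below 0.05 there were 3 and 5 of the 9, and DESeq2 called none and 1. Over all genes tested the counts were 809 and 1894 at that unadjusted p and 74 and 477 by DESeq2. Paired, 3 and 7 of the 9 were called, against 2.94% and 12.7% of all genes.

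The largest of these differences were in Klf2 and S1pr1. Klf2 was 47.9, 46.9 and 21.1 CPM in Treg T against 23.7, 23.7 and 11.0 CPM in Tcon T, and 102, 70.7 and 52.9 CPM in Treg TLA against 32.6, 37.8 and 20.2 CPM in Tcon TLA. S1pr1 was 52.4, 50.3 and 35.5 CPM in Treg T against 25.6, 23.1 and 16.6 CPM in Tcon T, and 71.9, 54.8 and 42.4 CPM in Treg TLA against 22.9, 26.6 and 15.2 CPM in Tcon TLA. Both were higher in Treg in 6 of 6 same-numbered pairs; the S1pr1 groups were apart in both media and the Klf2 groups with lactic acid. Klf2 differences were 0.99 ± 0.43 (log2, SE) and 1.32 ± 0.43 (edgeR adjusted p 0.769 and 0.119; paired 0.98 and 1.32, adjusted p 0.000293 and 7.30e-07). S1pr1 differences were 1.08 ± 0.40 and 1.39 ± 0.40 (adjusted p 0.558 and 0.0704; paired 1.08 and 1.39, adjusted p 3.94e-05 and 3.31e-07).

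Btg1 was lower in Treg in 6 of 6 pairs, by -0.32 ± 0.17 and -0.39 ± 0.17 (log2, SE; edgeR adjusted p 0.966 and 0.300; paired -0.33 and -0.40, adjusted p 0.00166 and 7.41e-05). With lactic acid the paired fit also called Lef1 (0.53, adjusted p 0.000245), Bach2 (0.37, 0.0424), Il7r (-0.63, 0.00566) and Ccr7 (-0.28, 0.00546). Without pairing these 4 were 0.53 ± 0.18, 0.34 ± 0.27, -0.62 ± 0.31 and -0.28 ± 0.11. Satb1 was the lowest in Treg: 113, 86.2 and 82.8 CPM in T and 119.5, 105 and 89.8 CPM in TLA. Each Satb1 library in Treg was below every Tcon library of the same medium, and the differences of -0.41 ± 0.22 and -0.34 ± 0.22 passed neither fit (edgeR adjusted p 0.981 and 0.575; paired 0.337 and 0.290).

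The fifth comparison asked what lactic acid did in the 5 matched pairs of groups. Without pairing, edgeR called none of the 9 in any of them, nor in the mean of the 5, and DESeq2 called none. Over all genes the shares called were 0.0835% (24 h S), 0.23% (24 h T), 0.0696% (72 h S), 2.16% (72 h T), 3.51% (Treg) and 9.41% (mean of 5). At an unadjusted p below 0.05 there were 0, 1, 2, 1, 3 and 4 of the 9. Over all genes tested the counts at that threshold were 1027, 1197, 1289, 2036, 2454 and 3182. Paired, 1, 4, 2, 3, 3 and 7 of the 9 were called, against 4.27%, 6.7%, 3.42%, 15.4%, 19.7% and 24.1% of all genes.

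At 24 h, 7 of the 9 genes were higher with lactic acid in all 6 same-numbered pairs of libraries (Klf2, Tcf7, Satb1, Il7r, S1pr1, Ccr7 and Btg1), as were 12.7% of all genes tested. Lef1 was higher in 5 of the 6 and Bach2 in 1 of the 6. The median log2 difference over these pairs was largest for S1pr1, at 0.67, with a range of 0.38 to 1.00. It was 0.39 for Il7r, 0.35 for Klf2, 0.27 for Satb1, 0.23 for Tcf7, 0.18 for Ccr7, 0.12 for Btg1, 0.06 for Lef1 and -0.05 for Bach2. S1pr1 without TGF-beta, at 13.6, 20.6 and 33.3 CPM in S and 18, 33.2 and 67.1 CPM in SLA, differed by 0.81 ± 0.40 (SE; edgeR adjusted p 0.718; paired 0.75, adjusted p 0.00328). With TGF-beta it differed by 0.69 ± 0.38 (adjusted p 0.706; paired 0.63, adjusted p 0.00332). The unpaired S1pr1 difference without TGF-beta was 0.19 without SLA replicate 3 and up to 1.21 over the other fits that left out 1 library. With TGF-beta it was 0.22 without TLA replicate 3 and up to 1.02 over the others. With TGF-beta the paired fit also called Il7r (0.65, adjusted p 0.0145), Ccr7 (0.21, adjusted p 0.0440) and Btg1 (0.21, adjusted p 0.0296). Without TLA replicate 3 the unpaired differences of Il7r and Btg1 were 0.26 and 0.10, against 0.68 and 0.22 with all libraries.

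At 72 h Btg1 was lower with lactic acid in all 8 same-numbered pairs, as were 7.51% of all genes. Its values were 149 and 104 CPM in S and 112, 80.1 and 90.1 CPM in SLA, 256, 206 and 206 CPM in T and 206, 164 and 154 CPM in TLA, and 216, 151 and 167 CPM in Treg T and 164, 118 and 118 CPM in Treg TLA. The groups of each contrast overlapped, and replicate 1 was the highest in each group. The log2 differences were -0.42 ± 0.19 (SE) in Tcon without TGF-beta, -0.35 ± 0.17 in Tcon with it and -0.42 ± 0.17 in Treg (edgeR adjusted p 0.526, 0.348 and 0.186), and paired -0.36, -0.35 and -0.42 (adjusted p 0.00658, 0.000194 and 2.50e-05). Over the fits that left out 1 library the unpaired differences ran from -0.67 to -0.13, from -0.49 to -0.24 and from -0.60 to -0.26, each smallest in size without replicate 1 of the group without lactic acid. Btg1 was higher with lactic acid in all 6 pairs at 24 h and lower in all 8 at 72 h, a pattern that 0.591% of all genes shared.

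A contrast added after this was seen tested whether lactic acid acted differently at 72 h and 24 h in Tcon. Without pairing, edgeR called none of the 9, against 0.0904% of all genes, with 1 at an unadjusted p below 0.05 and none by DESeq2. Over all genes tested, 1582 had an unadjusted p below 0.05 and DESeq2 called 70. For Btg1 the difference was -0.56 ± 0.17 (log2, SE; adjusted p 0.253; paired -0.52, adjusted p 3.15e-05). Paired, 3 of 9 were called, against 11% of all genes: Btg1, S1pr1 (-0.67, adjusted p 0.0102) and Bach2 (-0.38, adjusted p 0.0470).

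Klf2 with lactic acid at 72 h was 32.6, 37.8 and 20.2 CPM in Tcon TLA against 23.7, 23.7 and 11.0 CPM in Tcon T, and 102, 70.7 and 52.9 CPM in Treg TLA against 47.9, 46.9 and 21.1 CPM in Treg T. It was higher in 6 of these 6 pairs, and the Treg groups were apart. The differences were 0.63 ± 0.43 in Tcon and 0.96 ± 0.42 in Treg (log2, SE; edgeR adjusted p 0.573 and 0.232; paired 0.65 and 0.99, adjusted p 0.00508 and 1.74e-05). Without TGF-beta the difference of -0.54 ± 1.00 rested on 6 to 17 reads a library and was not detectable at this depth.

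Bach2 was lower with lactic acid in all 5 Tcon pairs at 72 h, by -0.79 ± 0.30 (log2, SE) without TGF-beta (edgeR adjusted p 0.455; paired -0.63, adjusted p 0.0122) and -0.30 ± 0.27 with it (adjusted p 0.707). The first difference was -0.01 without 72 h Tcon S replicate 1 and -1.30 without replicate 2. Over all 8 pairs at 72 h, Treg included, Bach2 was higher with lactic acid in 2. Il7r was higher in all 5 Tcon pairs at 72 h, by 0.19 ± 0.35 without TGF-beta and 0.47 ± 0.31 with it (adjusted p 0.884 and 0.555; with TGF-beta paired 0.45, adjusted p 0.0397). With Treg included, it was higher in 7 of 8 pairs. The share of all genes with the same direction in all 5 Tcon pairs was not counted. Lef1 was higher with lactic acid in 3 of 3 Treg pairs, at 230.4, 257 and 269.5 CPM against 142, 229.8 and 213 CPM, by 0.37 ± 0.18 (adjusted p 0.278; paired 0.40, adjusted p 0.00235).

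For the mean of the 5 contrasts the paired fit called Klf2 (0.45, edgeR adjusted p 0.0150), Tcf7 (0.19, 0.0398), Lef1 (0.12, 0.0311), Il7r (0.37, 0.000392) and S1pr1 (0.34, 0.000621) higher and Bach2 (-0.21, 0.00731) and Btg1 (-0.16, 0.000127) lower. Unpaired, these means were 0.41 ± 0.27, 0.14 ± 0.10, 0.12 ± 0.08, 0.36 ± 0.14, 0.34 ± 0.19, -0.26 ± 0.12 and -0.17 ± 0.08 (log2, SE). Of the 36 other naive and quiescence genes, 4 rose and 1 fell in the mean of 5 without pairing, against 9.41% of all genes called in either direction. Txnip, a glucose uptake inhibitor, rose by 0.66 ± 0.16, Ablim1 rose by 0.30 ± 0.05 and Slfn2, a quiescence factor, fell by 0.43 ± 0.06. Of 20 activated and effector genes, none rose and 4 fell, against the same 9.41%. Among the 4 was Cd44, the adhesion receptor of activated cells, which fell by 0.58 ± 0.08.

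The endothelial sum moved with lactic acid too: it was 37.9 ± 4.01 CPM (SD, n = 3) in S and 55.4 ± 9.91 in SLA at 24 h, and 32.1 ± 1.36 in Treg T and 55.7 ± 8.72 in Treg TLA. Most of it was Pecam1, which rose by 0.72 ± 0.10 (log2, SE) in the mean of 5, while Emcn, Tek and Cdh5 were at 0 in nearly all libraries. The CD8 and NK sum in 72 h Tcon with TGF-beta was 73.2 ± 27.7 CPM without lactic acid and 123.8 ± 24.9 with it. The part of these markers in the results was not tested.

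**Figure D4:**
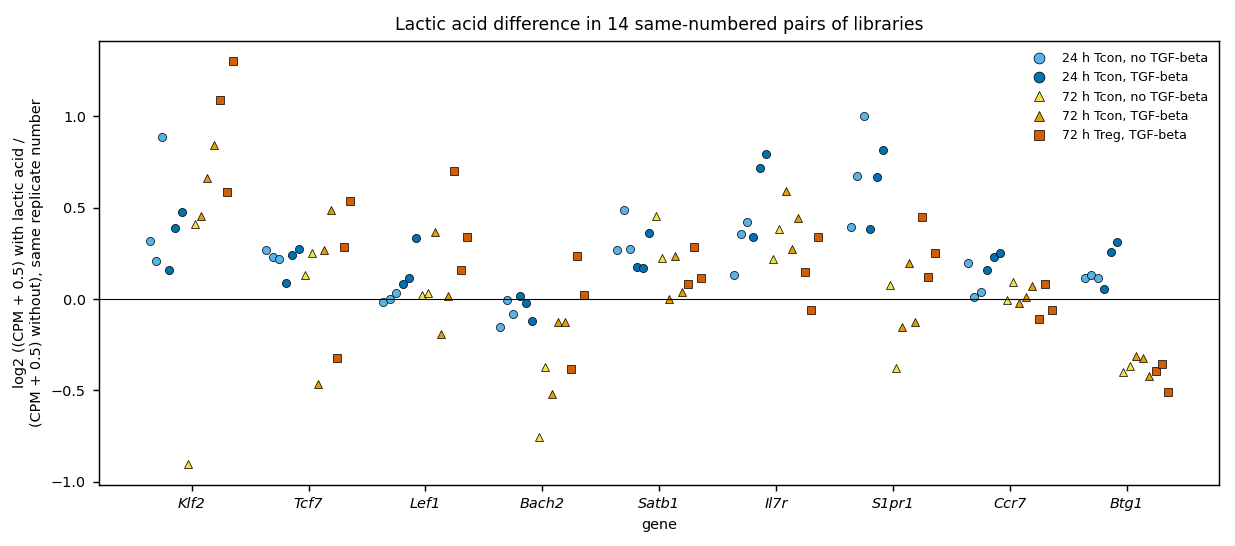
Log2 ratio of CPM + 0.5 with lactic acid to that without it, in 14 same-numbered pairs of libraries. Circles are 24 h Tcon, triangles 72 h Tcon and squares 72 h Treg. For Btg1 all 6 points at 24 h lie above 0 and all 8 at 72 h below it.

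Whether lactic acid acted differently with and without TGF-beta was tested at each time, and whether it did so between Treg and Tcon at 72 h. For the 9 genes edgeR called none of these, paired or not, with none at an unadjusted p below 0.05 in the unpaired fit and none by DESeq2. Over all genes the unpaired fit called 0% at 24 h, 0.104% at 72 h and 0% between the populations, and the paired fit 0%, 4.54% and 0%. For Klf2 at 72 h the difference was 1.17 ± 1.10 with TGF-beta against without it and 0.33 ± 0.60 in Treg against Tcon (log2, SE), so that the errors were about as large as these differences or larger.

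The order of the 10 group means held few clear steps. Neighbouring groups differed by more than the larger of their SDs in 4 of 9 steps for Btg1, 3 of 9 for Klf2, Tcf7 and Ccr7, 2 of 9 for Bach2 and Satb1, and 1 of 9 for Lef1, Il7r and S1pr1. Even so, the library ranges overlapped in all 4 steps of Btg1 and in that of Il7r. They also overlapped in the Klf2 step from 30.2 to 20.2 CPM, the Satb1 step from 125 to 105 and the Ccr7 step from 449 to 383. For Ccr7 the steps lay below the 4 groups at 24 h (from 989.9 ± 42.4 CPM in 24 h T to 454.5 ± 29.7 in 72 h Tcon TLA, SD, n = 3), below the 2 Tcon groups with TGF-beta at 72 h (449 ± 43.0 to 383 ± 36.5 in Treg T) and above the 2 groups without TGF-beta at 72 h (375 ± 27.3 in Treg TLA to 216 ± 4.93 in S, n = 2). For Tcf7 the largest step was from 719 ± 41.3 CPM in 24 h S to 264 ± 25 in 72 h SLA. For Klf2 such steps lay between 75.4 ± 25.2 CPM in Treg TLA and 38.6 ± 15.2 in Treg T, between 30.2 ± 9.06 in 72 h Tcon TLA and 20.2 ± 8.04 in 24 h S, and between 19.5 ± 7.31 in 72 h Tcon T and 1.07 ± 0.540 in 72 h S (n = 2). For Satb1 the steps lay between 274 ± 32.4 CPM in 24 h T and 132 ± 9.92 in 72 h Tcon TLA, and between 125 ± 13.0 in 72 h Tcon T and 105 ± 14.9 in Treg TLA. For Bach2 they lay between 585 ± 25.5 CPM in 24 h TLA and 481 ± 31.4 in 24 h S, and between 455 ± 23.6 in 24 h SLA and 248 ± 146 in 72 h S. The single step of S1pr1 lay between 21.5 ± 5.85 CPM in 72 h Tcon TLA and 10.8 ± 0.488 in 72 h S, that of Il7r between 48.5 ± 9.13 CPM in 24 h SLA and 38.8 ± 3.75 in 24 h S, and that of Lef1 between 247 ± 13.9 CPM in 24 h T and 218 ± 14.7 in 24 h SLA.

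Across the 29 libraries, after the mean of each time point was taken off, the 36 pairs of the 9 genes had a median Pearson r of 0.30 on the log2 scale, with 21 pairs positive and 15 negative. The most positive pair was Klf2 and S1pr1 (0.87) and the most negative Klf2 and Satb1 (-0.88). These points share treatment groups and replicate numbers, so the values describe the libraries and carry no test. By the same measure the genes most like Klf2 were Tlr1 (0.98), Dbp (0.97) and Klhl6 (0.97), and those most like S1pr1 were Trib2, Il17ra and Ddb2 (0.93, 0.92 and 0.92). For Tcf7 they were Itga4, Pde4b and Hip1r (0.87, 0.85 and 0.85), for Lef1 Tmem64, Ets1 and Trp53i11 (0.95, 0.95 and 0.94), and for Bach2 Tsc22d1, Hspa4l and Ptch1 (0.92, 0.92 and 0.92). For Satb1 they were Ajm1, Inppl1 and Tg (0.95, 0.94 and 0.94), for Il7r Dtx3, Rbm39 and St3gal6 (0.84, 0.83 and 0.80), for Ccr7 Cubn, Tbxa2r and Cnn2 (0.93, 0.91 and 0.91), and for Btg1 Gna13, Kdm3a and Pld2 (0.95, 0.95 and 0.95).

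The replicate number itself moved with several of the genes. At 24 h, Klf2, Tcf7, Lef1, Il7r, S1pr1 and Btg1 were highest in replicate 3 and lowest in replicate 1 in all 4 groups, a pattern shared by 3.71% of all genes. At 72 h, Bach2, Il7r and Btg1 were highest in replicate 1 in all 6 groups, as were 15.5% of all genes. Lef1 went the other way and was lowest in replicate 1 in all 6. Klf2, Tcf7 and Ccr7 were lowest in replicate 3 in all 5 groups at 72 h that have that replicate. The shares of all genes with these last patterns were not counted. Replicate 1 is the male library of each group, and sex and the other differences between replicates cannot be told apart.

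**Figure D5:**
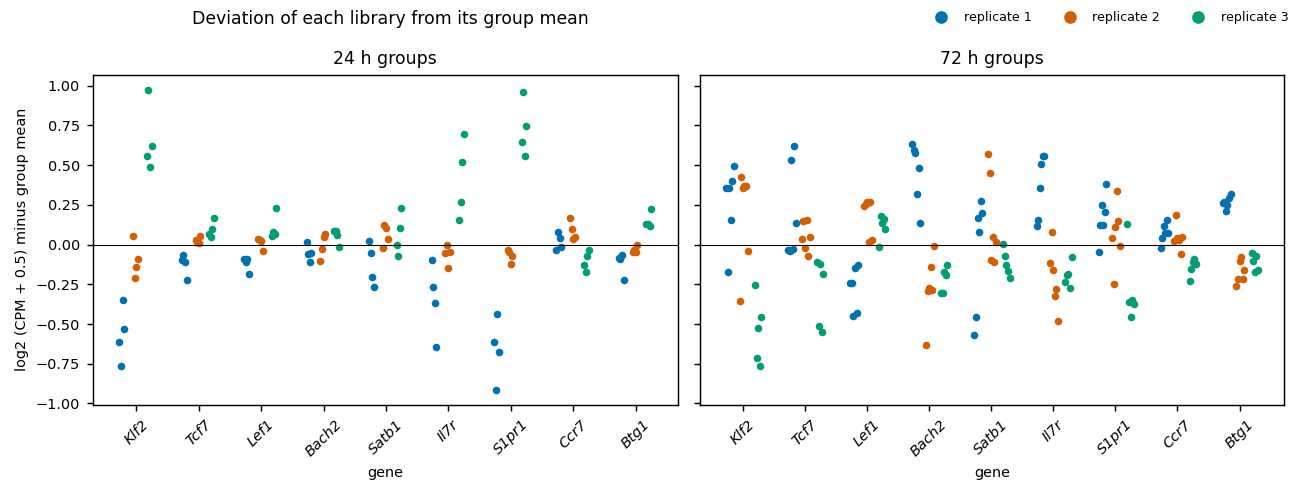
Deviation of each library from its group mean on the log2 (CPM + 0.5) scale, at 24 h (left) and 72 h (right), coloured by replicate number. At 24 h replicate 3 lies above replicate 1 for Klf2, Tcf7, Lef1, Il7r, S1pr1 and Btg1 in all 4 groups; at 72 h replicate 1 lies highest for Bach2, Il7r and Btg1.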

How the data were processed

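Total RNA of 29 libraries was sequenced with a stranded mRNA kit, per the labels' protocols. The deposited values are whole-number read counts per Ensembl gene; the submitters' processing notes name STAR 2.7.3a, GRCm39, HTSeq 0.12.4 and DESeq2 1.30.1. For the strand setting and the annotation release, the sources used here name none. Rows that name no gene (no feature 5.72% to 11.2%, ambiguous 1.01% to 1.13%, low alignment quality 13.3% to 17% of a library's reads) stayed out of all sums. Symbols came from a table of gene identifiers, which matched 52081 of 55414 genes.

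Counts were fitted with edgeR 4.0.16 in R 4.3.3: TMM scaling, genes kept by filterByExpr (minimum count 10, total 15), 1 mean per group over all 29 libraries, quasi-likelihood tests, and Benjamini-Hochberg adjustment over 14375 genes with calls below 0.05. The SE is the log2 difference divided by the square root of F. There were 21 planned contrasts and 1 added after the data were seen. Within a time point, deviations of same-numbered libraries correlated at 0.14 to 0.83 over 27 pairs in contrasts with 3 shared numbers and at 0.49 to 0.79 over 4 pairs in those with 72 h Tcon S, against -0.71 to 0.40 and -0.79 to 0.57 for different numbers, so the numbers were taken to pair libraries; between time points the same-numbered range was -0.09 to 0.17. Deviations from a group mean add up to 0, so positive values for same numbers push those for different numbers below 0. At 72 h replicates 2 and 3 correlated with each other at 0.07 to 0.57, so the numbers there mainly set replicate 1 apart. In 72 h Tcon, TLA replicate 3 correlated with SLA replicate 2 at 0.40, against 0.32 and 0.29 for replicates 2 and 3 with their own numbers. The labels do not say that replicates are separate animals, so p-values measure the spread between these libraries. The paired fit adds 6 replicate blocks, 1 per number and time. The steps were tested on simulated data for lactic acid in Treg (13724 genes): 90% of 2-fold and 100% of 4-fold changes were recovered, with 8 false calls.

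Alternatives were DESeq2 1.42.0, its size factors, all genes unfiltered, each contrast's own groups, the female libraries by themselves, 72 h without replicate 1, and leaving out each library. Log2 ratios and correlations used CPM + 0.5. The 9 genes and the lists were chosen with earlier results of these data known. By name, the text gives all 9, a fixed set of partner genes (such as Foxo1; 1 of the set is not reported here), at most 4 called genes of at least 5 CPM per list and contrast with the smallest p, and the 3 genes most like each; single markers were named for their share of a marker sum, after their values were seen. Exon lengths, promoters and coordinates are of the earlier build GRCm38, not of the build of the counts.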

Additional observations from a re-analysis of the deposited data

Results flagged for a closer look

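The effect of TGF-beta in Tcon differed between 72 h and 24 h, by edgeR's test of the difference itself, for 3 of the 9 genes. The log2 effect on Ccr7 was larger at 72 h by 1.08 without lactic acid and by 1.02 with it, and that on Klf2 by 3.47 with lactic acid. The size of the Klf2 difference depends on 72 h Tcon SLA, where Klf2 had 6 to 15 reads a library. The effect on Satb1 with lactic acid was lower at 72 h by a difference of -1.03. This call was lost in 5 of 12 fits that left out 1 library (24 h SLA replicate 1 or 3, 24 h TLA replicate 3, 72 h SLA replicate 2 or 72 h TLA replicate 3). Over all 12 fits the Satb1 difference ran from -1.18 to -0.77. The 24 h and 72 h cultures may differ in more than time, which cannot be told apart here.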

How the results depend on the processing

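The 9 genes gave 110 gene-by-contrast differences called in the fit reported above or in an alternative. With the replicate block, and leaving aside the direct contrasts of 72 h with 24 h, 26 stayed on the same side of the threshold and 49 newly passed it. The same side was kept by 105 with DESeq2 (5 newly passed), by 107 with DESeq2's size factors (2 newly passed, 1 was lost) and by 97 without the filter on low counts (13 newly passed). No alternative scaling shifted the median of all genes by over 0.1 on the log2 scale.

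Pairing libraries by replicate number (the replicate block) moved the number of the 9 genes called for lactic acid from 0 to 4 (24 h with TGF-beta), 1 (24 h without), 3 (72 h with), 2 (72 h without), 3 (Treg), 7 (mean of 5 groups) and 3 (72 h against 24 h). Over all genes, in the same order, 0.23%, 0.0835%, 2.16%, 0.0696%, 3.51%, 9.41% and 0.0904% were called without the block. With it the shares were 6.7%, 4.27%, 15.4%, 3.42%, 19.7%, 24.1% and 11%. For TGF-beta at 72 h the number of the 9 called moved from 5 to 9 with lactic acid and from 4 to 7 without. It moved for TGF-beta at 72 h against 24 h from 3 to 5 and from 1 to 5, and for Treg against Tcon from 0 to 7 and 3. The shares of all genes in these contrasts, in the same order, were 45%, 24.5%, 14.4%, 5.73%, 2.55% and 0.216% without the block. With it they were 60%, 45.4%, 33.6%, 19.4%, 12.7% and 2.94%.

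Where no gene was called for lactic acid, the female libraries gave 1 at 72 h with TGF-beta, 1 in Treg, 1 between times and 3 for the mean of 5 groups. Leaving out the 72 h replicate 1 libraries, chosen after the data were seen, gave 1 in Treg, 1 between times and 1 for the mean. Without the filter the count was 1 in Treg and 1 for the mean, and the compared groups fitted alone gave 1 at 24 h without TGF-beta. TGF-beta between times without lactic acid called 2 genes with DESeq2 and 3 in the female libraries, without the 72 h replicate 1 libraries and without the filter, against 1. Treg against Tcon with lactic acid called 1 with DESeq2 and 3 in each of those 3 settings, and 1 without lactic acid when unfiltered, against 0. TGF-beta at 72 h with lactic acid called 8 unfiltered, against 5. Over all genes DESeq2 called 1137 for TGF-beta between times without lactic acid and 477 for Treg against Tcon with it. For the other settings, and for the fits below that leave out 1 library, no share of all genes is given. Whether those counts of the 9 differ from such a share was not tested. The female libraries and the reduced 72 h sets hold fewer samples. Otherwise the cause was not tested.

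Leaving out 1 library at a time gave 0 to 1 genes for lactic acid at 72 h without TGF-beta, 0 to 2 for the mean of 5 groups, 2 to 4 for TGF-beta at 24 h with and without lactic acid, 3 to 6 for TGF-beta at 72 h without it, and 1 to 2 for TGF-beta between times without it. Satb1 between times in S changed sign, from -0.20 to 0.26 in the female libraries, 0.27 without the 72 h replicate 1 libraries and -0.92 to 0.26 over single libraries left out; the cause was not tested. Depth limits Klf2 at 72 h without TGF-beta, which rests on 6 to 17 reads.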

Other observations

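Around Il7r, 2 of 11 genes of IL-7 receptor signalling were called for lactic acid in the mean of the 5 contrasts, 1 in each direction, against 9.41% of all genes called in either direction: Socs3, a feedback inhibitor of cytokine signalling, rose by 0.59 ± 0.09 (log2, SE; edgeR adjusted p 0.000117) and Stat5a, a transcription factor that IL-7 and IL-2 activate, fell by 0.26 ± 0.05 (adjusted p 0.000511). In single contrasts Stat5a fell at 72 h with TGF-beta, with log2 differences of -0.69 ± 0.10 in Tcon and -0.55 ± 0.10 in Treg. None of the 11 genes was called in the tests of whether lactic acid acted differently with and without TGF-beta or at 72 h and 24 h. Jak3, a kinase of the same receptor, rose from 24 h to 72 h in Tcon S by 1.10 ± 0.11, while Stat5a fell by 0.56 ± 0.11.

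Around S1pr1 and Ccr7, 4 of 10 trafficking genes were called higher with lactic acid in the mean of the 5 contrasts and none lower, against 9.41% of all genes called in either direction. Itga4 and Itgb7, which encode the integrin chains for homing to the gut, rose by 0.52 ± 0.12 and 0.44 ± 0.09 (log2, SE; edgeR adjusted p 0.00675 and 0.00293), and Arrb2, an arrestin that ends receptor signalling, rose by 0.20 ± 0.03 (adjusted p 0.000302). Over time Cxcr4, a chemokine receptor, rose in Tcon S by 2.72 ± 0.47 (adjusted p 6.26e-05), where Ccr7 fell. The 7 BACH partners and targets moved both ways over time, with 4 higher and 1 lower in S, 3 and 2 in SLA, and 3 and 1 in both T and TLA. Over all genes, 45.5% were called in either direction in S, 46.6% in SLA, 52.8% in T and 47.4% in TLA. Whether the counts of the 7 differ from these shares was not tested. Among the 7, Hmox1, a heme oxygenase gene that BACH factors are known to repress, rose by 3.74 ± 0.91 in S, 4.0 ± 0.89 in SLA, 4.56 ± 0.91 in T and 2.73 ± 0.86 in TLA.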
